A study of Mus musculus with 16 samples.

Results

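The TRAV3 family, called Vα5 in the older nomenclature, is a group of related V segments of the mouse T cell receptor α (TCRα) locus. It was followed in CD8 cells of Themis+/+ and Themis-/- mice, through sequencing of their TCRα transcripts. Its members were the CDR3 nucleotide sequences whose first-listed V hit was TRAV3-1, TRAV3-3, TRAV3-4, TRAV3D-3 or TRAV3N-3. There were 6814 such sequences among 78671 in the 8 libraries of all CD8 cells, and the 5 segments were among 117 V segments of 26 families detected there. The whole series held 83992 sequences in 16 libraries, and the other 8 libraries, from sorted Vα3.2+ cells, were not used for these comparisons. No sequence with a first hit outside the family had a TRAV3 segment as an equal best hit (0 sequences).

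The 8 libraries formed 4 groups of 2: CD8 single-positive (SP) thymocytes and CD8 T cells of lymph nodes (LN), each from Themis+/+ and Themis-/- animals. All groups were on the C57BL/6 background and carried the Foxp3-GFP reporter allele, and Themis-/- animals lacked the gene in the germline, so every cell of the animal was affected. The sources used here give no ages. For the sort, LN of several mice of a genotype were pooled according to the methods, whereas the design text speaks of individual mice, so the animals behind a library are uncertain and p-values measure only the spread between libraries. Each value below is a count of MiSeq reads, or of distinct CDR3 nucleotide sequences, in a library of TCRα cDNA made by template switching and amplified from the constant region. No molecular identifiers are described, and intervals cover counting error only. TCRα tables do not measure Themis or any lineage marker, so genotype and cell type rest on the labels.

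A TCRα chain is made when the RAG recombinase joins 1 V segment to 1 J segment, and non-templated N nucleotides can be added at the junction, which becomes the CDR3 loop facing the peptide. The locus can rearrange repeatedly on the same allele, each time joining a V segment farther upstream to a J segment farther downstream, until a receptor passes positive selection or the cell dies. Themis is a T-lineage signalling protein needed for efficient positive selection of thymocytes.

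In the GENCODE M21 annotation of GRCm38 all 5 genes lie on the + strand of chromosome 14, each with 2 exons, and the second exon of 291 bases encodes most of the V domain and the start of the CDR3. The submitters' processing notes name mm9, so these positions come from the annotation and not from the deposited tables. Trav3-1 (chr14:52580665-52581213) is farthest from the J cluster, 1574 kb before the first Traj gene. Trav3d-3 (chr14:52972448-52973038) lies 1182 kb, Trav3n-3 (chr14:53283585-53284175) 871 kb, Trav3-3 (chr14:53665929-53666506) 488 kb and Trav3-4 (chr14:53776956-53777576) 377 kb before it. The 60 Traj genes span 63.8 kb with numbers that fall along the chromosome, so a high TRAJ number means a J segment near the V segments and a low number a J segment near the constant region.

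The second exons are printed because their near identity limits which members a read can tell apart. TRAV3-3 is the reference, and capitals mark the bases at which another segment differs from it.
TRAV3-3: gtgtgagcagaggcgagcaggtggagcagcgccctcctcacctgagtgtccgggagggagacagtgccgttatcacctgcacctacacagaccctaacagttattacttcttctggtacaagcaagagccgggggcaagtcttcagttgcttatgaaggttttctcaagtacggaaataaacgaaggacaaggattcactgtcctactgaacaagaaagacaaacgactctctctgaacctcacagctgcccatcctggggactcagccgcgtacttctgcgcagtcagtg
TRAV3N-3: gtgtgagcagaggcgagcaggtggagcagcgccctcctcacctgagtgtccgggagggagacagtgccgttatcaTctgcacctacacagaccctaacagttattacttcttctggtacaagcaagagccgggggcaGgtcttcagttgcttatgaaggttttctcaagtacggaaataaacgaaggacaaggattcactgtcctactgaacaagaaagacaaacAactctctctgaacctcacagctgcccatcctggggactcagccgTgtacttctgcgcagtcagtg
TRAV3-1: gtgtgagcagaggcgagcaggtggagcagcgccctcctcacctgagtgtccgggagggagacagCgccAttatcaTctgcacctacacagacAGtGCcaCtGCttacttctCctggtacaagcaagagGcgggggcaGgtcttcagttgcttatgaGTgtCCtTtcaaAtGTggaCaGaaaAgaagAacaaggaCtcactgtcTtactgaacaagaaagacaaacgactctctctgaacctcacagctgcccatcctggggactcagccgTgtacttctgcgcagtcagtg
TRAV3-4: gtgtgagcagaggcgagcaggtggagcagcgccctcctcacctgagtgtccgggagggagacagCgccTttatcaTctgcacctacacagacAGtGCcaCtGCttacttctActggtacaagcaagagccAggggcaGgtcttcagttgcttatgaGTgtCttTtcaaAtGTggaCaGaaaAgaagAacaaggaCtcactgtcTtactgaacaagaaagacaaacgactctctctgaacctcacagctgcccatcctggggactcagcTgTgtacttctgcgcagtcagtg
TRAV3D-3 has the same exon as TRAV3N-3, with 0 mismatches. TRAV3-3 differs from both by 4 bases, C76T, A138G, G226A and C271T, counted from 1 at the first base of the exon. TRAV3-1 and TRAV3-4 form the other branch, with 6 mismatches between them and 26 to 28 from the rest. All 5 exons end in the same codons, for Cys-Ala-Val-Ser, which open the CDR3 of an untrimmed segment.

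TRAV3 was a large family in every library. The 8 libraries held 57455 to 146191 reads, and TRAV3 contributed 4788 to 12313 of them in 376 to 1398 distinct sequences. Its share of reads was 9.18% and 8.67% in the Themis+/+ thymocyte libraries 1 and 2, 7.93% and 8.49% in the Themis-/- thymocyte libraries, 9.81% and 10.5% in Themis+/+ LN and 7.18% and 10.2% in Themis-/- LN. In the thymus the mean was 8.21% in Themis-/- and 8.92% in Themis+/+ libraries. In the LN the Themis-/- libraries were far apart and spanned the Themis+/+ value of 9.81%.

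The family as a whole did not pass the test in any comparison. Genotype was compared with edgeR's quasi-likelihood test on reads per V family, adjusted over the 23 families tested. The log2 fold change of Themis-/- over Themis+/+ was -0.07 (SE 0.20, adjusted p = 0.894) in thymocytes and -0.26 (SE 0.20, adjusted p = 0.625) in LN. From thymus to LN it was 0.26 (SE 0.20, adjusted p = 0.894) in Themis+/+ and 0.07 (SE 0.20, adjusted p = 0.742) in Themis-/- mice, and the interaction of genotype and tissue was -0.19 (SE 0.28, adjusted p = 0.916). Of the 23 families, 4.35% were called in the LN genotype comparison and 0% in each of the other 4 comparisons. The direction in LN rested on Themis-/- library 1, since without it the change was 0.01. Across the 8 libraries the families whose log2 read counts, scaled to library size, were most like those of TRAV3 were TRAV19 (Pearson r = 0.79), TRAV20 (r = 0.78) and TRDV1 (r = 0.66). These values describe the 8 libraries only, and shares of 1 total are not independent.

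Most TRAV3 reads fell to TRAV3D-3 and TRAV3N-3, identical in their second exon. TRAV3D-3 was the first hit of 2648 sequences, TRAV3-3 of 1568, TRAV3N-3 of 1566, TRAV3-1 of 552 and TRAV3-4 of 480. Every one of the 2648 TRAV3D-3 sequences had TRAV3N-3 as an equal best hit. All 1566 TRAV3N-3 sequences had TRAV3N-3 as their only best hit. TRAV3D-3 was not listed for 627 of them, and where listed its score was lower by a median of 108.8. A TRAV3D-3 first hit is thus not assigned to either copy, and a TRAV3N-3 first hit scored best with TRAV3N-3 alone. The split between these copies moved with read number: TRAV3N-3 took 4.56% of the TRAV3 sequences seen in 1 read and 42.2% of those with over 10 reads, against 43.8% and 30.6% for TRAV3D-3. TRAV3-3 also moved, from 36.2% to 13.4%. The part of read number in the values of these 3 segments was not tested, and the reads of TRAV3D-3 and TRAV3N-3 are given below both apart and together.

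TRAV3-3, the copy nearer to the J cluster, was lower on average in Themis-/- than in Themis+/+ libraries of both tissues, and no difference passed the test. It made up 1.16% and 1.82% of reads in Themis+/+ thymocytes, 1.14% and 0.929% in Themis-/- thymocytes, 2.63% and 1.86% in Themis+/+ LN and 1.15% and 0.881% in Themis-/- LN. The means of Themis-/- and Themis+/+ libraries were 1.03% and 1.49% in thymocytes and 1.02% and 2.25% in LN, although the nearest values of the genotypes differed little. The log2 fold change was -1.16 in LN (SE 0.41, adjusted p = 0.0953) and -0.43 in thymocytes (SE 0.40, adjusted p = 0.838) in edgeR's quasi-likelihood test over 114 segments, so neither passed. Leaving out 1 library moved the value in thymocytes from -0.06 (without Themis+/+ library 2) to -0.83 (without Themis+/+ library 1) and in LN from -0.73 (without Themis+/+ library 1) to -1.38 (without Themis-/- library 1), and it passed in none of these 8 fits. Averaged over both tissues it was -0.79 (SE 0.29, adjusted p = 0.0819), a comparison chosen after the data had been seen.

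Reads of TRAV3D-3 and TRAV3N-3 lay in opposite directions between genotypes, and neither difference passed the test. TRAV3D-3 held 2.94% and 3.39% of reads in Themis+/+ thymocytes, 2.32% and 2.25% in Themis-/- thymocytes, 3.54% and 3.87% in Themis+/+ LN and 1.56% and 2.39% in Themis-/- LN. TRAV3N-3 held 3.20% and 2.37%, 3.33% and 4.03%, 2.72% and 3.29%, and 3.91% and 5.37% in the same order. By group mean, TRAV3D-3 was thus lower and TRAV3N-3 higher in Themis-/- than in Themis+/+ libraries of each tissue. In LN the edgeR log2 fold change was -0.94 (SE 0.32, adjusted p = 0.0953) for TRAV3D-3 and 0.59 (SE 0.30, adjusted p = 0.274) for TRAV3N-3. In thymocytes it was -0.38 (adjusted p = 0.838) and 0.49 (adjusted p = 0.794). By distinct sequences TRAV3D-3 was at -0.20 in LN (edgeR adjusted p = 0.609), at -0.06 in thymocytes (adjusted p = 0.909) and at -0.13 over both tissues (adjusted p = 0.601). Counted together they held 6.14%, 5.75%, 5.65%, 6.27%, 6.26%, 7.16%, 5.48% and 7.75%, in the same library order. Counted so, the genotypes overlapped in both tissues, and the merged log2 fold change in LN was 0.07 (adjusted p = 0.854), with TRAV3-3 at -1.05 (adjusted p = 0.111) in that fit.

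The distal TRAV3-1 and the proximal TRAV3-4 were the rarest members. TRAV3-1 ranged from 0.405% to 1.09% of reads with a median of 0.645%, and TRAV3-4 from 0.147% to 0.838% with a median of 0.566%. Both extremes of TRAV3-1 came from Themis-/- LN, 0.405% in library 1 and 1.09% in library 2, and the lowest TRAV3-4 value was from library 1 of the same group, with 98 reads. Their log2 fold changes in LN were 0.17 (SE 0.54, adjusted p = 0.886) and -0.88 (SE 0.59, adjusted p = 0.478).

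By edgeR, 0 of the 5 members were called in LN, where 1.75% of the 114 segments were, and 2 members had an unadjusted p under 0.05. In thymocytes 0 members were called (background 0%), with 0 at an unadjusted p under 0.05. From thymus to LN 0 members were called in Themis+/+ mice (background 0%) and 0 in Themis-/- mice (background 2.63%), and over both tissues 0 (background 6.14%), with 3 at an unadjusted p under 0.05. For the interaction of genotype and tissue the count was also 0 (background 0.877%). DESeq2 on the same reads called 3 members in LN, where it called 14.9% of the segments: TRAV3-3 (-1.05, adjusted p = 0.025), TRAV3D-3 (-0.82, adjusted p = 0.025) and TRAV3N-3 (0.71, adjusted p = 0.0396). With distinct sequences in place of reads, edgeR called TRAV3-3 in LN (-0.92, adjusted p = 0.0169, background 8.33%). Over both tissues DESeq2 called the same 3 segments (background 13.2%), and distinct sequences called TRAV3-3 (-0.81, adjusted p = 0.000743) and TRAV3N-3 (0.49, adjusted p = 0.0192, background 23.1%).

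**Figure D1:**
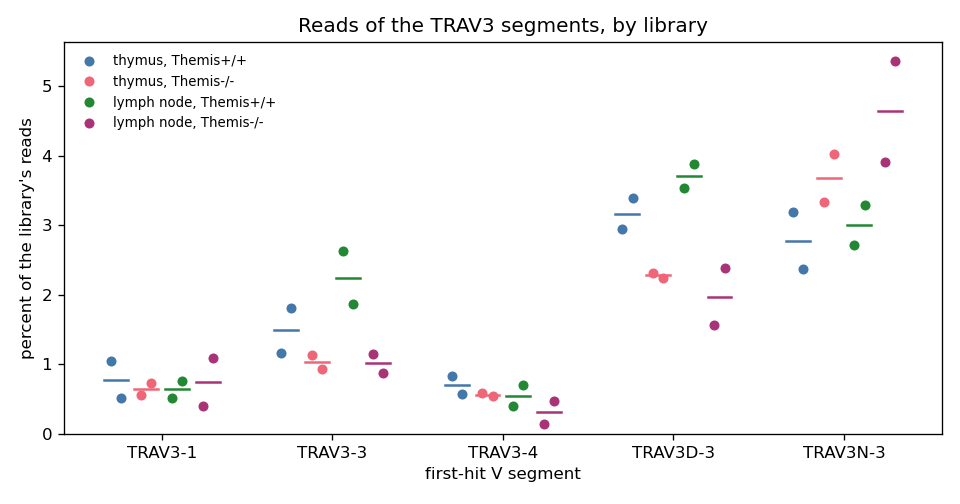
Each point is 1 library, and its height is the percent of the library's reads whose first hit was the TRAV3 segment on the x axis, with colors for the 4 groups and a bar at each group's mean (n = 2). TRAV3-3 sat at 0.881% to 1.15% in the 4 Themis-/- libraries and at 1.16% to 2.63% in the 4 Themis+/+ libraries, while TRAV3D-3 and TRAV3N-3, identical in their second exon, lay in opposite directions between genotypes by reads. The nearest TRAV3-3 values, 1.15% and 1.16%, came from different tissues, and by edgeR on reads none of these differences passed.

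The members differed in the mean position of their J partners, and TRAV3-3 stood apart from TRAV3D-3 and TRAV3N-3. For each library the mean TRAJ number of a member's sequences was taken. For TRAV3-3 it was 36.4 and 36.3 in Themis+/+ thymocytes, 36.6 and 35.1 in Themis-/- thymocytes, 36.9 and 36.4 in Themis+/+ LN and 36.3 and 36.3 in Themis-/- LN. For TRAV3D-3 and TRAV3N-3 together it was 23.7, 28.1, 21.9, 22.6, 27.8, 24.9, 24.1 and 21.9 in the same order. The ranges did not overlap, and TRAV3-3 varied far less from library to library (SD 0.51 against 2.45). TRAV3-1 had a mean of 26.4 (SD 3.38, n = 8) and TRAV3-4 of 30.6 (SD 5.04, n = 8), with few sequences in some libraries, down to 16 for TRAV3-4.

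These differences were tested within libraries with two-sided exact sign-flip permutation tests, whose smallest p over 8 libraries is 0.0078. TRAV3-3 exceeded TRAV3D-3/TRAV3N-3 by 11.9 TRAJ numbers (SD 2.30, 8 of 8 libraries, exact permutation test, adjusted p = 0.0391) and TRAV3-1 by 9.85 (SD 3.16, 8 of 8, adjusted p = 0.0391). Its excess over TRAV3-4 was 5.73 (SD 4.89, 7 of 8, exact adjusted p = 0.0625). TRAV3-4 exceeded TRAV3D-3/TRAV3N-3 by 6.19 (SD 3.04, 8 of 8, exact adjusted p = 0.0391) and TRAV3-1 exceeded them by 2.07 (SD 1.45, 8 of 8, exact adjusted p = 0.0391). The order of the means was thus TRAV3-3, TRAV3-4, TRAV3-1 and TRAV3D-3/TRAV3N-3, and the neighbors TRAV3-3 and TRAV3-4 were not shown to differ, nor were TRAV3-4 and TRAV3-1 (TRAV3-1 minus TRAV3-4 -4.12, SD 3.52, exact adjusted p = 0.125). It did not follow the order of distance to the J cluster, in which TRAV3-4 is nearest and TRAV3-1 farthest. These comparisons of single members were chosen after the data had been seen. With TRAV3-3, TRAV3D-3 and TRAV3N-3 taken as 1 group, as first planned, none of 12 comparisons with TRAV3-1 and TRAV3-4 passed (lowest exact adjusted p = 0.125). Weighted by reads the 4 passing differences kept their sign but no longer passed (exact adjusted p from 0.0781 to 0.327).

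The same contrast showed in the J segments themselves. J segments numbered 30 and above took 71.9% to 85.2% of TRAV3-3 sequences in the 8 libraries and 28.6% to 51.1% of TRAV3D-3/TRAV3N-3 sequences. The most frequent partners of TRAV3-3 were TRAJ49 (8.99% of its sequences), TRAJ40 (5.99%) and TRAJ50 (5.23%), all in the V-proximal part of the cluster. Those of TRAV3D-3/TRAV3N-3 were TRAJ30 (6.22%), TRAJ22 (5.74%) and TRAJ21 (5.60%). TRAV3-1 was most often joined to TRAJ22 (9.42%), and TRAV3-4 to TRAJ40 (9.58%). TRAV3D-3 sequences, all tied with TRAV3N-3, had a mean TRAJ number 2.85 above those best with TRAV3N-3 alone (SD 1.38, 8 of 8 libraries, exact permutation test, adjusted p = 0.0156). These are the segments whose split moved with read number.

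**Figure D2:**
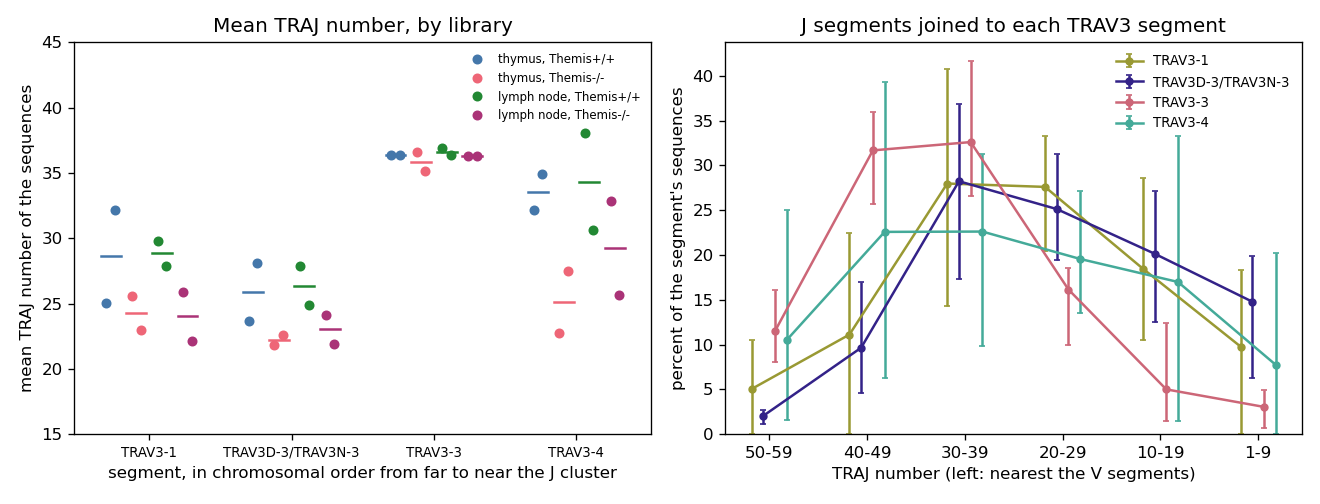
Left, the mean TRAJ number of each segment's sequences, 1 point per library with a bar at each group's mean (n = 2) and the axis cut to 15 to 45; right, the percent of each segment's sequences in bins of TRAJ number, as the mean of 8 libraries with bars from the lowest to the highest library. TRAV3-3 points lie between 35.1 and 36.9 and those of TRAV3D-3/TRAV3N-3 between 21.9 and 28.1.

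For CDR3 length, hydropathicity and net charge no difference between members passed, apart from 1 between TRAV3D-3 and TRAV3N-3 first hits. Mean lengths ran from 39.9 bp (TRAV3-4) to 40.6 bp (TRAV3-3), and none of the 15 single-member comparisons of these 3 features passed (lowest exact adjusted p = 0.067, for the hydropathicity and the charge of TRAV3-3 against TRAV3D-3/TRAV3N-3). TRAV3D-3 sequences were less hydrophobic than TRAV3N-3 sequences in 8 of 8 libraries (4.11 against 4.88, difference -0.77, SD 0.54, exact permutation test, adjusted p = 0.0156). Every TRAV3D-3 first hit tied with TRAV3N-3, and the split moved with read number. A difference between the copies themselves is thus not shown.

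Across genotypes, TRAV3 as a whole was joined to lower-numbered J segments in Themis-/- mice. The mean TRAJ number was 27.1 and 31.4 in Themis+/+ thymocytes, 24.5 and 25.2 in Themis-/- thymocytes, 31.9 and 28.2 in Themis+/+ LN and 26.9 and 24.6 in Themis-/- LN. The 4 Themis-/- libraries, at 24.5 to 26.9, all lay below the 4 Themis+/+ libraries, at 27.1 to 31.9. The difference was -4.36, with p = 0.0556 in an exact permutation test of genotype within tissues, which is the smallest p its 36 arrangements allow. The remaining families, of the same libraries, differed by -4.10 (exact p = 0.0556), and the TRAV3 difference departed from theirs by -0.27 (exact p = 0.944), so nothing particular to TRAV3 was detected.

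Among the members this difference was not uniform. TRAV3-1 differed by -4.58 (exact permutation p = 0.111), TRAV3-4 by -6.76 (exact p = 0.111), TRAV3D-3 by -3.79 (exact p = 0.0556) and TRAV3N-3 by -2.32 (exact p = 0.111). TRAV3-3 differed by -0.42 (exact p = 0.389), with 36.1 in Themis-/- and 36.5 in Themis+/+ libraries. Without TRAV3-3 the family difference was -4.13. Whether TRAV3-3 differs from the other members in its genotype difference was not tested. Between tissues of 1 genotype the mean changed by 0.79 (Themis+/+) and 0.89 (Themis-/-), with overlapping libraries.

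Single pairs of TRAV3 with a J segment were tested among 694 pairs of all families, 43 of them with TRAV3. One TRAV3 pair was called, TRAV3 with TRAJ44 (a J segment at chr14:54173690-54173750 of GRCm38). It had 70 and 183 reads in Themis+/+ thymocytes, 147 and 260 in Themis-/- thymocytes, 295 and 209 in Themis+/+ LN and 0 and 0 in Themis-/- LN. By distinct sequences the counts were 22 and 15, 13 and 13, 22 and 14, and 0 and 0. The pair was present in each of the other 6 libraries and was not detected among the 851 TRAV3 sequences of both Themis-/- LN libraries. A limit of 3 sequences there is a share of 0.353%, and the 95% exact binomial interval reaches 0.433%. In Themis+/+ LN its share was 2.10% of sequences (95% exact binomial interval 1.48% to 2.90%) and in Themis-/- thymocytes 1.29% (0.845% to 1.88%). The intervals take the pooled sequences of both libraries of a group as independent and do not cover the spread between libraries. For Themis-/- LN a limit of 3 reads over both libraries was set. By reads, the share in Themis+/+ LN was 135-fold this limit and that in Themis-/- thymocytes 76.4-fold. These ratios take the shares as observed and are not lower bounds of the difference. By distinct sequences the ratios to a limit of 3 sequences were 5.96-fold and 3.66-fold, and these too are not lower bounds. The sequence counts, shares and ratios here are from the deposited sequences. With the J end merged, as described below, the pair had 18 and 10, 8 and 8, 15 and 9, and 0 and 0 sequences in the same order. The Themis-/- LN libraries then held 213 and 267 TRAV3 sequences.

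The edgeR adjusted p was 0.00298 for the genotype difference in LN, where 0.144% of the 694 pairs were called, 0.00599 from thymus to LN in Themis-/- mice (background 0.432%) and 0.0179 for the interaction of genotype and tissue (background 0.144%). No TRAV3 pair (0) was called between genotypes in thymocytes, with 1 at an unadjusted p under 0.05 (background 0%), or between tissues in Themis+/+ mice, with 1 (background 0%). By distinct sequences the LN genotype difference passed (adjusted p = 0.0428), but not the change from thymus to LN (adjusted p = 0.168) or the interaction (adjusted p = 0.373). The LN call held without each of the 4 LN libraries in turn (adjusted p from 0.00768 to 0.0394), and thymocyte libraries were not left out for it. The change from thymus to LN was lost when only the 4 libraries compared were fitted (0.404), and without Themis-/- thymocyte library 2 (0.107) or Themis-/- LN library 1 (0.113), and the interaction without Themis+/+ thymocyte library 1 (0.228) or 2 (0.234), Themis-/- thymocyte library 2 (0.402) or Themis+/+ LN library 2 (0.113).

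TRAJ44 was present in other V families of those libraries, though the difference between TRAV3 and these families was not tested. In the same 2 Themis-/- LN libraries, sequences of other families with TRAJ44 numbered 34 and 43, at 0.854% and 0.870% of their sequences, close to the 0.726% to 1.15% of the other 6 libraries. TRAV3-3 accounted for 58 of the 99 sequences of the pair, TRAV3D-3 for 26 and each other member for 5. The median log2 fold change of the 43 TRAV3 pairs in LN was -0.11, beside -0.14 for all 694, so these medians were close.

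Another 3 TRAV3 pairs were called in LN by DESeq2 alone or with distinct sequences, and are named here after their values were seen. DESeq2 called 4 TRAV3 pairs in LN, with TRAJ44, TRAJ40, TRAJ18 and TRAJ7 (background 6.2%), 3 between tissues of Themis-/- mice (background 5.48%) and 4 over both tissues (background 4.47%). With distinct sequences edgeR called 2 in LN, TRAJ44 and TRAJ40 (background 0.732%), and 0 between tissues of Themis-/- mice (background 0%) or over both tissues (background 0%). TRAJ40 took 4.22% and 6.80% of TRAV3 sequences in Themis+/+ thymocytes, 3.50% and 3.55% in Themis-/- thymocytes, 6.14% and 5.61% in Themis+/+ LN and 1.06% and 1.26% in Themis-/- LN. By deposited sequences both Themis-/- LN libraries, with 4 and 6 sequences, were the lowest, while other families held 3.59% and 4.59% there. With the J end merged, TRAJ40 took 4 of 213 and 3 of 267 TRAV3 sequences in these libraries. In Themis-/- thymocyte library 1 it then took 10 of 580, a smaller share than in Themis-/- LN library 1. TRAJ18 had 55 and 25 TRAV3 reads in Themis+/+ LN and 197 and 565 in Themis-/- LN, where the higher value was library 2. By edgeR on reads the LN differences of TRAJ40, TRAJ18 and TRAJ7 did not pass.

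**Figure D3:**
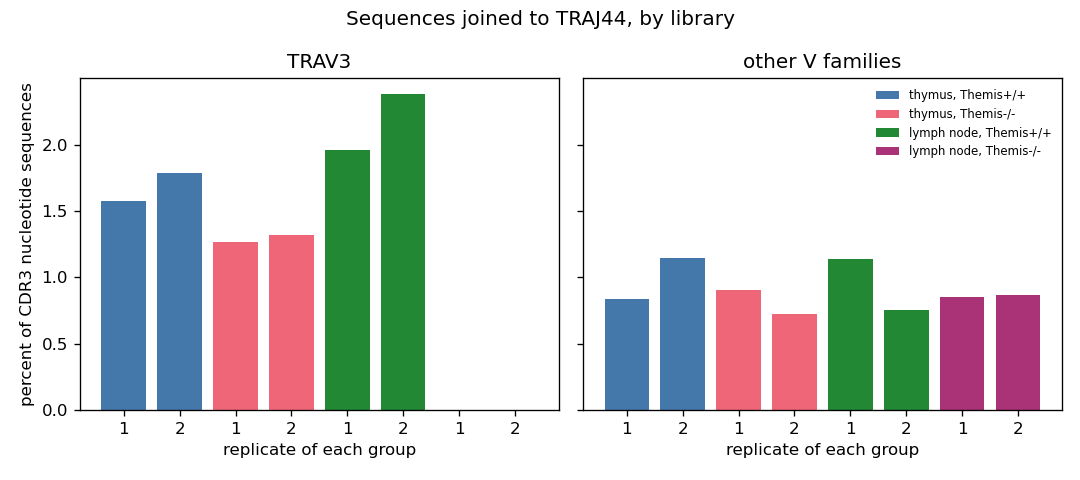
Bars give the percent of CDR3 nucleotide sequences joined to TRAJ44 in each of the 8 libraries, for TRAV3 on the left and for all other V families on the right, in the order and colors of the 4 groups. TRAV3 bars reach 1.26% to 2.38% in 6 libraries and are 0 in both Themis-/- LN libraries, where the other families stand at 0.854% and 0.870%.

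Against the other families of the same library, TRAV3 CDR3s were more hydrophobic and more positively charged. The summed Kyte-Doolittle hydropathicity of the CDR3 averaged 4.25 (SD 0.29, range 3.67 to 4.57, n = 8) in TRAV3 and 2.12 (SD 0.36, range 1.64 to 2.68, n = 8) in the rest. TRAV3 was higher in 8 of 8 libraries, by 2.12 on average (exact sign-flip permutation test, adjusted p = 0.0137 over 7 features). Part of the CDR3 is germline V sequence: 85.9% to 94.1% of TRAV3 sequences began with CAV, and 50.6% to 61.3% with CAVS. Counting only residues after the first 3, the difference was 0.85 (8 of 8, exact adjusted p = 0.0137). Net charge, from Arg and Lys against Asp and Glu, averaged 0.591 in TRAV3 and 0.408 elsewhere, a difference of 0.184 (SD 0.060, 8 of 8, exact adjusted p = 0.0137).

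TRAV3 was also joined to J segments nearer the constant region than other families. Its mean TRAJ number was 27.5 (SD 2.88, n = 8) against 28.9 (SD 2.74, n = 8), lower in 8 of 8 libraries, with a difference of -1.395 (SD 1.02, exact permutation test, adjusted p = 0.0137). Its CDR3s were 0.26 bp shorter (40.3 against 40.6 bp, 7 of 8 libraries, exact adjusted p = 0.0328), a difference that no longer passed when weighted by reads or when any of 6 of the 8 libraries was left out (exact adjusted p = 0.0656 each), all but library 2 of Themis+/+ and of Themis-/- LN. N nucleotides averaged 2.02 and 1.99 per CDR3 (difference 0.028, SD 0.16, exact adjusted p = 0.641). CDR3s without any N nucleotide made up 26.7% to 40.8% of TRAV3 sequences and 31.6% to 37.0% of the others.

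By single J segments 0 of 43 passed after adjustment (background 0%), with 9 at an unadjusted p under 0.05. Over 8 libraries this test cannot call 1 segment alone among 43, so the count does not show equal use. The share was higher in TRAV3 in 8 of 8 libraries for TRAJ32 (3.88% of TRAV3 sequences, 2.21% in other families) and lower in 8 of 8 for TRAJ48 (1.39% and 1.98%), TRAJ56 (0.877% and 1.81%) and TRAJ57 (0.393% and 1.47%), each with an exact adjusted p of 0.0840. These are named after their values were seen. The 5 most frequent J partners of TRAV3 were TRAJ30 (5.54% of sequences on average, 4.24% in other families), TRAJ22 (5.06% and 5.53%), TRAJ21 (4.64% and 4.34%), TRAJ31 (4.56% and 5.07%) and TRAJ23 (4.48% and 5.20%).

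The CDR3s found in most libraries and the largest clones were built with few or no N nucleotides. Of 4494 TRAV3 CDR3 amino acid sequences, 3773 occurred in 1 library, 721 (16.04%) in at least 2 libraries and 104 (2.31%) in at least 4. For other families the last shares were 13.6% and 1.91%. Only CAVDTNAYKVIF and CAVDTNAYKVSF, both with TRAJ30, occurred in all 8 libraries. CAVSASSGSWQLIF, with TRAJ22, was 1 of 6 found in 7 libraries, and of these it had the highest mean share of TRAV3 reads (1.32%). CDR3s in 1 library carried a mean of 2.59 N nucleotides, the 61 in 4 libraries a mean of 0.761 and the 2 in all 8 a mean of 0.536. Those 2 are linked by the base exchange described below, and the same means were not compared with other families. The nucleotide sequences below are the most widespread form of each of these CDR3s, with a rarer form whose N nucleotide is in capitals.
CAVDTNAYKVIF: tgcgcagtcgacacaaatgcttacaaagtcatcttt
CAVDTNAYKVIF with 1 N nucleotide: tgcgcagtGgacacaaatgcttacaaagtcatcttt
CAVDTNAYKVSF: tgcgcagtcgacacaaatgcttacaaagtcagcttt
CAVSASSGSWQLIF: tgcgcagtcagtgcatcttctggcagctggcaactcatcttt
The first form of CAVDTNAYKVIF and that of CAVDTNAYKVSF differ by 1 base, T32G, counted from 1 at the first base of the CDR3. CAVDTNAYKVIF in this form had 109, 3, 26, 68, 3, 71, 140 and 3 reads in the libraries in the order above, and its partner had 38, 0, 12, 43, 0, 29, 55 and 3. The partner was thus absent or rare wherever the first was rare, and the next paragraph shows that this exchange was general.

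At the J end of the CDR3, T and G were mixed at fixed positions in all families. At bases 4 to 7 and 9 from the 3′ end of the CDR3, J segments whose most common base was T carried G in 25.7% to 36.6% of TRAV3 reads and in 24.9% to 33.2% of other reads. J segments whose most common base was G carried T there in 2.49% to 8.79% of TRAV3 reads. At the other positions of the last 15 bases G in place of T did not exceed 0.85% of TRAV3 reads. Setting these 5 positions to the more common letter and merging equal sequences reduced the TRAV3 sequences from 6814 to 4165, a loss of 38.9% (34.2% to 43.8% per library, and 35.7% to 42.7% for other families). Then 535 of 2946 TRAV3 CDR3 amino acid sequences (18.2%) occurred in at least 2 libraries and 1 in all 8. The cause was not tested. Counts of distinct TRAV3 sequences in this text are those deposited, and the comparisons of hydropathicity, charge, mean TRAJ number and single members kept their direction and their side of the threshold when the positions were merged.

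**Figure D4:**
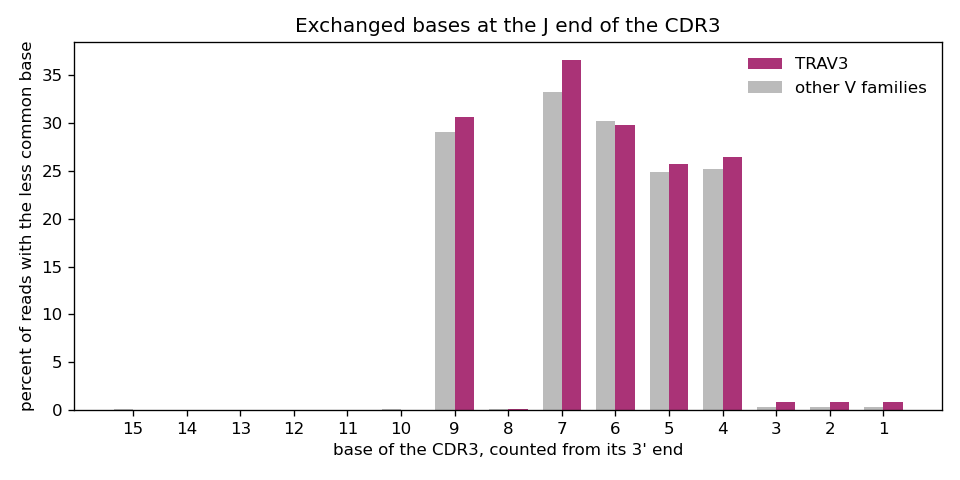
Bars give, at each of the last 15 bases of the CDR3 counted from its 3′ end, the percent of reads carrying G among J segments whose most common base is T, for TRAV3 and for other V families over the 8 libraries. Bars of 24.9% to 36.6% stand at bases 4 to 7 and 9 in both, and no other base exceeds 0.85%.

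The most abundant TRAV3 clone of each group, by mean share of the group's libraries, is printed as the sequence behind the clone sizes that follow.
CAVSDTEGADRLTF, Themis+/+ thymocytes, TRAJ45: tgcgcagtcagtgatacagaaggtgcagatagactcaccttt
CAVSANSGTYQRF, Themis-/- thymocytes, TRAJ13: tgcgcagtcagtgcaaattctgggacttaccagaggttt
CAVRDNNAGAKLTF, Themis+/+ LN, TRAJ39: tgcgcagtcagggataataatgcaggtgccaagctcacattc
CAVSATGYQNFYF, Themis-/- LN, TRAJ49: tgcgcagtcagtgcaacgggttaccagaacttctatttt
None of these sequences carried an N nucleotide (0 each). The Themis-/- LN clone reached 0.440% of all reads in 1 library and 0% in the other, and the largest clones of both Themis+/+ groups were likewise in only 1 library of their group. The Themis-/- thymocyte clone was in both libraries of its group, at 0.0116% and 0.117% of reads.

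TRAV3 diversity was lowest in Themis-/- LN. At 4788 reads, the TRAV3 depth of the shallowest library, the expected number of CDR3 amino acid sequences was 923 and 637 in Themis+/+ thymocytes, 690 and 694 in Themis-/- thymocytes, 765 and 468 in Themis+/+ LN and 309 and 349 in Themis-/- LN. Both Themis-/- LN libraries lay below the other 6. The log2 ratio of Themis-/- to Themis+/+ was -0.91 in LN and -0.17 in thymocytes, and from thymus to LN it was -1.07 in Themis-/- and -0.34 in Themis+/+ mice. An exact permutation test of 2 libraries against 2 cannot go below p = 0.333, which was the value in LN and in the Themis-/- comparison of tissues. Other families gave -0.83 in LN between genotypes and -1.09 between tissues of Themis-/- mice (exact p = 0.333 each). With the J end merged the TRAV3 values were 665.6 and 425.4, 454.3 and 470.4, 509.3 and 326.6, and 195 and 227.6 in the same order, and the log2 ratio in LN was -0.98.

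The 10 most abundant TRAV3 sequences took the largest share of reads in Themis-/- LN. They held 9.87% and 11.96% of TRAV3 reads in Themis+/+ thymocytes, 8.19% and 9.55% in Themis-/- thymocytes, 9.13% and 14.5% in Themis+/+ LN and 26.1% and 19.4% in Themis-/- LN. The Themis-/- LN values exceeded all others, by 10.96 percentage points over Themis+/+ LN and by 13.9 over Themis-/- thymocytes (exact permutation p = 0.333 each, the smallest possible). Thinned to the TRAV3 reads of the same library, all other families pooled gave 1.87% to 5.62%, below TRAV3 in 8 of 8 libraries, but a pool of many families holds more distinct sequences than 1 family. In this pool Themis-/- LN did not stand apart, at 5.62% and 4.60%, beside 5.27% in Themis-/- thymocyte library 1 and 4.75% in Themis+/+ LN library 2. Per the methods, RNA came from comparable numbers of sorted thymocytes and peripheral cells, and the numbers are not given. Fewer cells in a library, less RNA from each cell and the expansion of peripheral clones that the authors propose cannot be told apart in these counts.

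**Figure D5:**
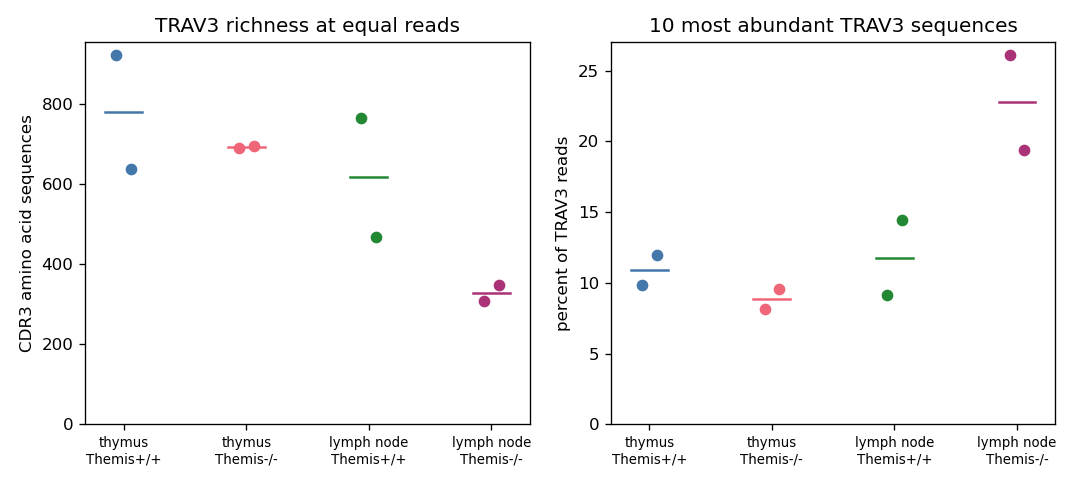
Left, the expected number of TRAV3 CDR3 amino acid sequences at 4788 reads; right, the percent of TRAV3 reads in the 10 most abundant nucleotide sequences, with 1 point per library and a bar at each group's mean (n = 2). Both Themis-/- LN libraries stand apart, at 309 and 349 sequences and at 26.1% and 19.4% of reads.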

How the data were processed

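CD8 cells were sorted, and TCRα cDNA was amplified and sequenced by the authors, who extracted clonotypes with MiXCR (no version is given by the sources used here). The submitters' processing notes name CASAVA 1.4 and mm9. The deposited tables give a read count, not normalized, per CDR3 nucleotide sequence and library. The authors also deposited the fraction of the library's reads, equal to count over total. The V and J segments were taken from the first hit. Counts per V family, V segment and V-J pair (at least 10 reads in at least 2 libraries) were tested with edgeR 4.0.16 (quasi-likelihood, TMM, all 8 libraries, Benjamini-Hochberg, 0.05) in R 4.3.3. DESeq2 1.42.0 was an alternative. Features were compared with exact permutation tests (Python 3.11.15, numpy 2.4.6, pandas 2.3.3, scipy 1.17.1), and figures were drawn with matplotlib 3.10.9. Zero counts were given a limit of 3 counts, and other shares 95% Clopper-Pearson intervals. PCR reads are not independent molecules. Segment sequences came from GENCODE M21.

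The named items were the 5 members, the 5 most frequent J partners, the pairs with the smallest adjusted p under 0.05 (up to 3 each way), the 3 CDR3s in most libraries, the largest clone of each group and the 3 families most like TRAV3. Members and lists were chosen with earlier results of these data known. Statistical scripts were tested on simulated data. In the LN genotype comparison 0 of 20 segments changed by a log2 fold change of 1 were called, and 15 of 20 at 2. For V-J pairs 0 of 200 were called at 2 and 61 of 200 at 4. Unchanged segments called numbered 0 and 2, and unchanged pairs 0 and 1. A count of 0 called therefore does not show equal use for differences of the smaller sizes. Alternatives were DESeq2, no filter, distinct sequences, other samples in the fit, equal reads, the replicate block and leaving out each library. Merging TRAV3D-3 with TRAV3N-3, near variants or the J end, pooling tissues and crossing numbers were added after the data had been seen.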

Additional observations from a re-analysis of the deposited data

Results flagged for a closer look

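The difference between genotypes in reads of TRAV3 joined to TRAJ44 was not the same in thymus and LN. In Themis+/+ mice the pair held 70 and 183 reads in thymocytes and 295 and 209 in LN, and in Themis-/- mice 147 and 260 reads in thymocytes and 0 in both LN libraries. The interaction had an adjusted p of 0.0179 in edgeR's quasi-likelihood test, and 0.373 with distinct sequences in place of reads. Leaving out 1 library at a time gave adjusted p from 0.0333 to 0.402, above 0.05 without Themis+/+ thymocyte library 1 or 2, Themis-/- thymocyte library 2 or Themis+/+ LN library 2.

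TRAV3 reads also occurred in libraries sorted for Vα3.2+ cells, which were outside the comparisons and in which TRAV3 is not the V segment sorted for. They made up 0.0252% of reads (6 reads) in Themis+/+ LN library 1, 0.147% (37 reads) in Themis-/- LN library 1, 0.0514% (6 reads) and 0.187% (34 reads) in Themis+/+ thymocyte libraries 1 and 2, and 0.658% (68 reads) and 0.0174% (4 reads) in Themis-/- thymocyte libraries 1 and 2. Each was above the limit that a count of 0 allows, 0.0119% to 0.0290% across the 6 libraries. In Themis+/+ LN library 2 and Themis-/- LN library 2 there were 0 reads, which allows a share of up to 0.0139% and 0.0136%. Each of these 6 libraries with TRAV3 reads held 1 or 2 such sequences, and 2 of those in Themis-/- LN library 1 and 1 in Themis-/- thymocyte library 2 also occurred in the libraries of all CD8 cells. The cause was not tested.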

How the results depend on the processing

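With 2 libraries per group, exact tests between groups cannot pass, and depth limits rare members such as TRAV3-4. Distinct sequences gave a family change of 0.033 (adjusted p = 0.859) between genotypes in thymocytes, reversed, and no low count filter gave -0.0158 from thymus to LN in Themis-/- mice, reversed. DESeq2 called 3 members and 4 V-J pairs in LN between genotypes, 3 pairs between tissues of Themis-/- mice, and 3 members and 4 pairs over both tissues. Distinct sequences called 1 member and 2 pairs in LN, 0 pairs between tissues of Themis-/- mice and 2 members over both tissues, and fitting only the 4 libraries compared called 0 pairs between those tissues. CDR3 length against other families lost its call by reads (-0.298 bp), without sequences seen in 1 read (-0.258 bp) and with near variants collapsed (-0.243 bp). By reads N nucleotides reversed to -0.021, and TRAV3-1 minus the TRAV3-3 group reversed to 0.55 TRAJ numbers. Nucleotide sequences per amino acid sequence, 1.22 in TRAV3 and 1.24 elsewhere (difference -0.020), reversed to 0.0484 when thinned to equal reads and passed at -0.0269 with the J end merged. The causes were not tested.

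Leaving out 1 library leaves 1 in its group, assumed to vary like the others, and moved the family change from -0.0584 to 0.0602 in thymocytes, from -0.46 to 0.00915 in LN, from -0.23 to 0.34 between tissues of Themis-/- mice, and the interaction from -0.49 to 0.0836. Called pairs ran from 1 to 5 in LN, 0 to 4 between tissues of Themis-/- mice and 0 to 3 over both tissues, and called members over both tissues from 0 to 1. In LN the 5 came without Themis-/- library 2, a fit that called 18 of 684 pairs of all families (2.63%), and the other fits called 0.146% to 0.291%. Over all families the same fits called 0% to 2.19% of pairs between tissues of Themis-/- mice and 0% to 1.32% over both tissues, and 0.877% to 10.5% of segments over both tissues. Between the tissues TRAJ44 was lost without Themis-/- LN library 1 or thymocyte library 2. The length difference ran from -0.32 to -0.20 bp, sequences per amino acid sequence from -0.0258 to -0.0140, the richness ratio in thymocytes from -0.42 to 0.12, the share of the 10 largest between Themis+/+ tissues from -1.79 to 3.55 points, and the mean TRAJ number between tissues from -1.33 to 2.92 in Themis+/+ and from -0.25 to 2.03 in Themis-/- mice. With 7 libraries most of the single-member differences could not pass after adjustment.

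Same-numbered libraries did not deviate together (correlations -0.11 between genotypes in thymocytes, -0.15 in LN, -0.01 and -0.02 between tissues), so numbers were not taken as a pairing. With the replicate block the family changes were -0.07 in thymocytes and -0.28 in LN, members called stayed at 0 and TRAJ44 kept its calls (adjusted p = 0.00734 in LN, 0.0297 between Themis-/- tissues and 0.0338 for the interaction), while all called V-J pairs between Themis-/- tissues fell from 3 to 1. Crossing the numbers left 0 members and 1 TRAV3 pair called in LN, where it called 2 of 114 segments and 1 of 694 pairs, and 0 of each in thymocytes, where it called 0 of both.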
